A study of Mus musculus with 9 samples.

Results

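Lysosomal degradation in microglia was examined through 40 genes of the deposited expression table, out of 18571 genes in all. They were picked by symbol, by a rule that uses no measured value, but with earlier results of these data known. They comprise 16 genes of the vacuolar proton pump (V-ATPase: 6 of its membrane sector V0, 8 of its catalytic sector V1 and 2 accessory proteins), 16 hydrolases and activator proteins, 5 lysosomal membrane proteins and the 3 transcription factors Tfeb, Tfe3 and Mitf. RNA came from microglia, the resident macrophages of the brain, which were caught with a CD45 antibody from digested cortex and hippocampus of 9-month-old mice on a C57BL6/j background. The 3 groups had 3 libraries each: wild-type mice (WT), the amyloid model APP/PS1, and APP/PS1:Cx3cr1-CreER:Cx43-flox/flox mice, called Cx43 cKO here. In the last group a tamoxifen-dependent recombinase made from the Cx3cr1 locus deletes Cx43 (gene Gja1) in cells that express Cx3cr1, which include other macrophages and monocytes. The protocol in the labels gives tamoxifen by gavage at 0.1 mg/g on 5 days at 8 months of age for each of the 9 samples, while only the Cx43 cKO labels name a recombinase or a floxed allele. The labels do not say whether animals were pooled, so p-values measure only the spread between these libraries. That spread was small, at a common coefficient of variation of 3.14% in edgeR, or 0.988% with a term for the replicate number.

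Lysosomes digest what a microglial cell takes up, including amyloid and cell debris, and their hydrolases work in acid. The V-ATPase makes that acid: its V1 sector splits ATP in the cytosol, and this turns a ring of subunits in the V0 sector, which carries protons across the membrane. Lamp1 and Lamp2 line the lysosomal membrane, and Tfeb, Tfe3 and Mitf are related transcription factors that bind the CLEAR motif, a sequence shared by the promoters of many lysosomal genes. Their activity is set largely by phosphorylation at the lysosome, so their mRNA levels do not report it.

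The promoters of the genes were read from RefSeq (build GRCm38.p6, 250 bases before to 50 after each annotated start), which held an entry for 33 of the 40. The 7 without an entry were Atp6v0d2, Atp6v1b2, Atp6v1c1, Atp6v1g1, Atp6v1h, Asah1 and Plbd2. The core of the CLEAR motif was searched as TCACGTG on both strands, and matches on opposite strands that share all but 1 base (TCACGTGA) were counted as 1 site. It stood in 11 of the 33 promoters (33.3%), against 5.78% of 14659 genes of the expression table that have an entry. The shorter E-box CACGTG, which the CLEAR core contains, stood in the same 11 promoters (33.3%, against 10.1%), and the long palindromic CLEAR consensus in 0 of 33 (0.553% of genes of the table). The related letters TCATGTG, which Mitf is known to bind as well, stood in 4 promoters (12.1%, against 3.17%), namely those of Atp6v0c, Gla, Ppt1 and Tpp1. The macrophage box GAGGAAGT stood in 2 promoters, those of Gla and Gusb (6.06%, against 3.52%). The stretches below are shown because they hold the most sites in the list (Lamp1, Mcoln1, Gla and Atp6v0b) or belong to glycosidases that rose in the amyloid model (Glb1 and Naglu). Gaa, another glycosidase with a match (1 site, 141 nt upstream), rose less there and is not shown (log2 change 0.14, against 0.75 and 0.71). Each stretch reads 5′ to 3′ along the gene's strand, with matches to TCACGTG or its reverse complement in capitals.
Lamp1, chr8:13159087-13159160, plus strand, with 4 sites whose first bases lie from 62 to 16 nt upstream of the start: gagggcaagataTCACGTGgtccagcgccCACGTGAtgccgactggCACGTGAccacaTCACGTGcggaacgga
Mcoln1, chr8:3500435-3500492, plus strand, with 2 sites from 72 to 46 nt upstream: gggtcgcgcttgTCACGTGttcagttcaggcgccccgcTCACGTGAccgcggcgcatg
Gla, chrX:134601181-134601245, minus strand, with 2 sites from 228 to 195 nt upstream: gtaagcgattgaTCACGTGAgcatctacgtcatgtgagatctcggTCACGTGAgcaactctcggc
Atp6v0b, chr4:117887330-117887378, minus strand, with 2 sites from 37 to 19 nt upstream: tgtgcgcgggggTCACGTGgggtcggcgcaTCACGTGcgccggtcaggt
Glb1, chr9:114401017-114401047, plus strand, with 1 site 49 nt upstream: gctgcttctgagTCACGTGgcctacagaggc
Naglu, chr11:101070008-101070038, plus strand, with 1 site 74 nt upstream: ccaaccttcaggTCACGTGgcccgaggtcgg
The other matches lay in the promoters of Atp6v0d1, Atp6v0e, Atp6v1a, Gaa and Lgmn. A match describes letters in a window, and no binding was measured.

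Library totals ran from 18907681 to 19565354 estimated counts. Levels are in CPM, counts relative to a library size scaled by TMM (edgeR's default scaling), unless TPM is named, a deposited value that also accounts for gene length. All 9 microglial markers were detected in every library, with summed levels of 18708 to 19028 CPM for WT, 21954 to 22221 for APP/PS1 and 19024 to 19209 for Cx43 cKO. The sums hide opposite changes. In APP/PS1 versus WT 5 of the 9 were called higher and 3 lower (edgeR adjusted p under 0.05, against 26.9% and 32% of all genes). The 9 log2 changes there ran from -0.48 to 3.02. The calls were 1 and 6 in Cx43 cKO versus APP/PS1 (27.3% and 27.7%), and 5 and 4 in Cx43 cKO versus WT (24.7% and 23%). Markers of monocytes and neutrophils (11 genes, each detected in every library) summed to 2853 to 2904 CPM for WT, 963 to 990.0 for APP/PS1 and 9274 to 9479 for Cx43 cKO. Those of perivascular macrophages (6 genes, each detected in every library) summed to 527 to 539, 378 to 393 and 340.0 to 354 CPM, and those of astrocytes (7 genes, each detected in every library) to 426 to 437, 622 to 644 and 483 to 492 CPM. Erythroid markers (6 genes, of which 4 were detected in every APP/PS1 library and 6 in every library of the other groups) summed to 751 to 814, 174 to 194 and 66.9 to 73.7 CPM. Of these 6, 2 were called higher and 4 lower in Cx43 cKO versus APP/PS1 (27.3% and 27.7% of all genes). Their log2 changes there ran from -1.64 to 5.28. Markers of T cells and B cells (4 genes each, detected in every library) were low, at 18.2 to 20.5, 37.3 to 38.8 and 26.0 to 27.1 CPM for T cells and 25.0 to 27.2, 9.61 to 11.1 and 17.9 to 18.6 CPM for B cells. Oligodendrocyte markers (6 genes) summed to 1924 to 1988, 1995 to 2037 and 1904 to 1968 CPM in the same order of groups. Endothelial markers (4 genes) summed to 330 to 341, 326 to 334 and 276 to 285 CPM, and neuronal markers (8 genes) to 57.9 to 63.1, 63.2 to 71.5 and 44.2 to 46.9 CPM. Gja1 stood at 33.6 CPM ± 1.77 for WT, 39.7 ± 2.72 for APP/PS1 and 26.9 ± 1.42 for Cx43 cKO (SD, n = 3), so the knockout differed from APP/PS1 by -0.56 on the log2 scale (SE 0.06, edgeR adjusted p 7.95e-09) and was still detected. Cx3cr1, whose locus drives the recombinase, stood at 2259.8 CPM ± 24.2, 2231 ± 13.6 and 1214 ± 25.0 in the same order, and differed by -0.88 between Cx43 cKO and APP/PS1. In that comparison 6 of the 7 astrocyte markers were called lower too (27.7% of all genes), with a median log2 change of -0.47. Their part in the Gja1 difference was not tested. The Y-linked gene Ddx3y had 0, 1 and 2 counts in the Cx43 cKO libraries and 4137 to 4538 in the others, so sex and the Cx43 genotype cannot be told apart. Of the 40 genes, Atp6ap1, Atp6ap2, Gla, Lamp2 and Tfe3 are on the X chromosome. In bulk samples, fewer cells of a type and less RNA per cell cannot be told apart either. The part of all these differences in the results was not tested.

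All 40 genes passed the filter on low counts. Their mean level had a median of 156 CPM (7.87 to 3823), against 18.5 CPM for all 14696 genes tested, so they are mostly well-expressed genes. In APP/PS1 versus WT, 29 of the 40 rose and 5 fell (edgeR quasi-likelihood test, adjusted p under 0.05 over all genes tested), where 59% of all genes were called, 26.9% higher and 32% lower. The median log2 change was 0.31 for the 40 genes and -0.036 for all genes. At least 1.5-fold increases were called for 14 of them (11.7% of all genes) and at least 2-fold increases for 6 (4.83%), while 0 fell that far (7.63% and 3.72% of all genes). The libraries of both groups did not overlap for 36 of the 40, where this held for 63.5% of all genes.

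In Cx43 cKO versus APP/PS1, 19 of the 40 rose and 14 fell, where 55% of all genes were called, 27.3% higher and 27.7% lower. The median log2 change was 0.081 for the 40 genes and -0.011 for all genes. Few of these changes were large: 1 gene rose by at least 1.5-fold (7.36% of all genes) and 4 fell that far (10.1%), with 1 of them at least 2-fold lower (3.06%) and 0 at least 2-fold higher (4.59%). The groups did not overlap for 31 of the 40 (59.7% of all genes). In Cx43 cKO versus WT, 31 rose and 2 fell, where 47.7% of all genes were called, 24.7% higher and 23% lower, and the median log2 change was 0.29 against -0.0086 for all genes. At least 1.5-fold increases were called for 8 (6.68% of all genes) and 2-fold increases for 5 (3%), and 0 fell by 1.5-fold (6.1%) or 2-fold (2.18%). The groups did not overlap for 33 of the 40 (54.6% of all genes). The 3 comparisons share libraries pairwise, so their values are set side by side below and are not separate evidence of one another. The direction of small changes depended on the scaling. The median of all genes in APP/PS1 versus WT moved from -0.036 with TMM to -0.17 with library totals, -0.11 and -0.16 on FPKM with a pseudocount of 1 and 0.1, and -0.35 on TPM. Of all genes called in that comparison, 45.7% were higher with TMM, 29.5% with library totals and 14.7% on TPM. The corresponding medians on TPM were 0.14 in Cx43 cKO versus APP/PS1, where 75.3% of called genes were higher instead of 49.6%, and -0.17 in Cx43 cKO versus WT, where 19.8% were higher instead of 51.9%. On TPM 17 of the 40 genes were called higher and 20 lower in APP/PS1 versus WT, beside 11.4% and 65.9% of all genes, 28 and 7 in Cx43 cKO versus APP/PS1 (46.6% and 15.3%), and 19 and 10 in Cx43 cKO versus WT (12.2% and 49.4%). Adding a term for the replicate number to the TMM fit gave 31 higher and 6 lower (28.6% and 34.8% of all genes), 23 and 15 (30.3% and 29.9%), and 34 and 3 (27.9% and 26.1%) in the 3 comparisons. With that term and the offsets for length and GC content used below, they were 30 and 9 (27.1% and 29.3%), 21 and 11 (28.6% and 26.9%), and 32 and 3 (28.3% and 23.7%). The same call under TMM and all of 6 other scalings (DESeq2 size factors, library totals, FPKM with each pseudocount, TPM, and offsets for length and GC content) was found for 15 of the genes that rose and all 5 that fell in APP/PS1 versus WT. It was found for 15 that rose and 5 that fell in Cx43 cKO versus APP/PS1, and for 19 that rose and 2 that fell in Cx43 cKO versus WT. The share of all genes that kept a call in this way was not computed, so these counts have no background to be read against.

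**Figure D1:**
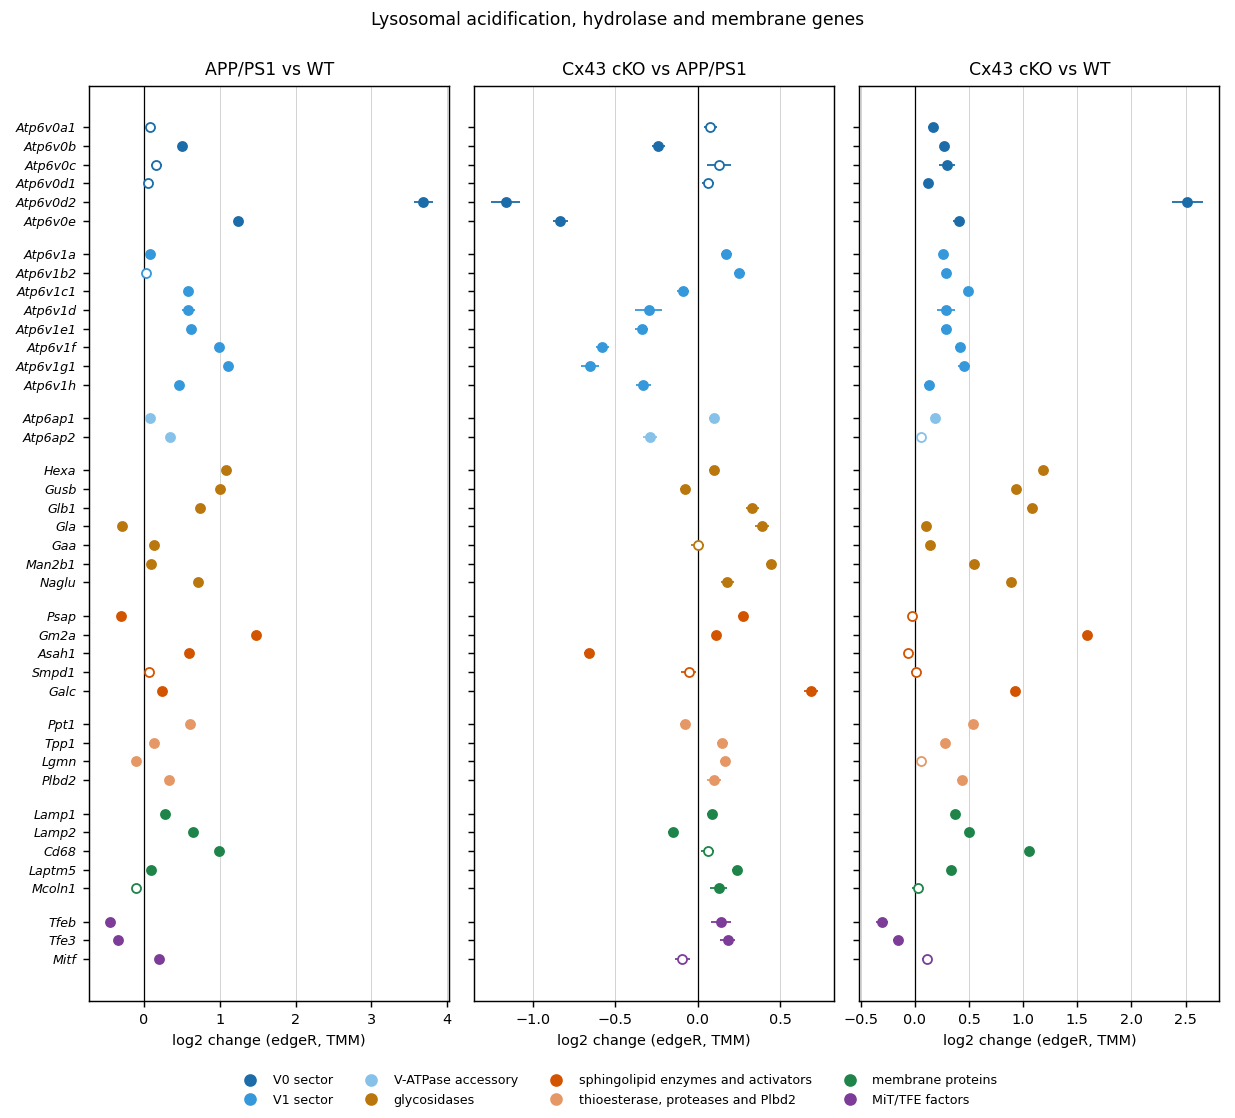
Log2 change of each of the 40 genes in the 3 comparisons (x axis, edgeR with TMM scaling; bars are ± 1 SE; the x axes differ between panels), grouped by role on the y axis; filled points passed an adjusted p of 0.05 and open points did not. Most filled points lie to the right of 0 in APP/PS1 versus WT (29 higher, 5 lower) and in Cx43 cKO versus WT (31 higher, 2 lower), while Cx43 cKO versus APP/PS1 is divided (19 higher, 14 lower).

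Among the 6 V0 genes, Atp6v0d2 and Atp6v0e rose more than 2-fold in APP/PS1 with TMM and were lower again in Cx43 cKO. Both directions were called under all scalings tried, although the size varied: with them, the log2 change against WT ran from 2.25 to 3.70 for Atp6v0d2 and from 0.51 to 1.26 for Atp6v0e. Atp6v0d2 (chr4:19876838-19922566) encodes a form of the d subunit, the stalk between the V0 ring and V1, that is best known from osteoclasts and macrophages. Its levels were 1.20, 1.28 and 1.13 CPM for WT, 15.3, 14.96 and 16.3 CPM for APP/PS1, and 7.42, 6.17 and 7.14 CPM for Cx43 cKO. The counts behind them were 24, 26 and 23 for WT, 280, 278 and 302 for APP/PS1, and 140, 118 and 137 for Cx43 cKO. The 3 groups did not overlap, with Cx43 cKO between the others. Atp6v0d2 was 12.8-fold higher in APP/PS1 than in WT (log2 change 3.68, SE 0.13, edgeR adjusted p 3.43e-19). In Cx43 cKO it was 5.72-fold above WT (2.52, SE 0.14, edgeR adjusted p 5.79e-14) and at 0.446 of the APP/PS1 level (-1.17, SE 0.09, edgeR adjusted p 1.86e-11). The widely expressed form of the same subunit, Atp6v0d1, had log2 changes of 0.06, 0.06 and 0.12 in APP/PS1 versus WT, Cx43 cKO versus APP/PS1 and Cx43 cKO versus WT, and with TMM only the last passed (edgeR adjusted p 0.00688). In APP/PS1 versus WT Atp6v0d1 was called lower with library totals (-0.081), on FPKM (-0.080 and -0.081), on TPM (-0.33) and with the offsets (-0.13), but higher when only the libraries of these 2 groups were fitted (0.092, edgeR adjusted p 0.0317). On the per-length scale, Atp6v0d2 transcripts amounted to 0.693% ± 0.033 of those of Atp6v0d1 for WT, 9.32% ± 0.49 for APP/PS1 and 3.94% ± 0.33 for Cx43 cKO (SD, n = 3).

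Atp6v0e (chr17:26676396-26699647), a small V0 membrane subunit, stood at 42.2, 40.4 and 43.5 CPM for WT, 102, 92.7 and 102 CPM for APP/PS1, and 55.4, 53.0 and 58.4 CPM for Cx43 cKO. The groups did not overlap, and the Cx43 cKO libraries were closer to WT. It was 2.36-fold higher in APP/PS1 than in WT (log2 change 1.24, SE 0.05, edgeR adjusted p 6.79e-18) and lower by -0.83 in Cx43 cKO relative to APP/PS1 (SE 0.05, edgeR adjusted p 2.32e-14). Atp6v0b, a ring subunit, followed with TMM, at 0.51 in APP/PS1 versus WT and -0.24 in Cx43 cKO versus APP/PS1 (edgeR adjusted p 1.07e-11 and 7.19e-06), but with length and GC offsets it was at -0.12, which did not pass, and at 0.23, called higher (edgeR adjusted p 0.0524 and 0.000967). With offsets and replicate block together, the first of these was called lower (-0.12, edgeR adjusted p 1.87e-05), opposite to the call with TMM. The other ring subunit, Atp6v0c, and the proton-channel subunit Atp6v0a1 did not pass in either of these comparisons (0.17 and 0.13 for Atp6v0c, 0.09 and 0.08 for Atp6v0a1). Both passed in APP/PS1 versus WT without APP/PS1 library 1 (0.22 and 0.11), and Atp6v0a1 also without WT library 2 (0.11) or 3 (0.11). Both passed with only the 2 groups compared (0.20 and 0.12), Atp6v0a1 with DESeq2 size factors (0.11) and Atp6v0c with the DESeq2 Wald test (0.18). On TPM they were called lower in APP/PS1 than in WT (-0.23 and -0.28), and with the offsets Atp6v0c was called lower at -0.39 while Atp6v0a1 was called higher at 0.24 (edgeR adjusted p 0.000308 and 1.3e-07). A fit with a term for the replicate number called both of them higher in APP/PS1 versus WT (0.17 and 0.088, edgeR adjusted p 2.89e-13 and 0.00108). Between Cx43 cKO and APP/PS1, Atp6v0c was called higher with the offsets (0.58), on TPM (0.32) and on FPKM with a pseudocount of 1 (0.16). Atp6v0d1 was called higher there with the offsets (0.18), on TPM (0.25), with library totals (0.092) and on FPKM (0.090 and 0.091), and Atp6v0a1 on TPM (0.25) and with library totals (0.11). All 6 V0 genes were higher in Cx43 cKO than in WT with TMM, by 0.12 to 0.40 apart from Atp6v0d2. Only Atp6v0d2 and Atp6v0e were called higher there under every scaling. On TPM Atp6v0b (0.10), Atp6v0c (0.096) and Atp6v0a1 (-0.030) did not pass, and Atp6v0d1 was called lower (-0.079, limma adjusted p 0.0462). With library totals Atp6v0c (0.19), Atp6v0a1 (0.055) and Atp6v0d1 (0.011) did not pass, nor did Atp6v0a1 and Atp6v0d1 on FPKM (0.059 and 0.010 with a pseudocount of 1). With the offsets Atp6v0b and Atp6v0d1 did not pass (0.12 and 0.055), although Atp6v0b did once the replicate block was added (edgeR adjusted p 4.28e-05).

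Of the 8 V1 genes, 7 rose in APP/PS1 versus WT (26.9% of all genes), and in Cx43 cKO versus APP/PS1 6 fell and 2 rose (27.7% and 27.3% of all genes). With length and GC offsets the second comparison gave 3 higher, 2 lower and 3 that did not pass (26.7% and 25.2% of all genes were called higher and lower with them). Atp6v1g1, part of the peripheral stalk, stood at 76.7 CPM ± 4.57 for WT, 165 ± 8.37 for APP/PS1 and 105 ± 8.11 for Cx43 cKO (SD, n = 3). It changed by 1.11 and then by -0.65 (SE 0.06 and 0.05, edgeR adjusted p 1.33e-10 and 7.04e-08), but with the offsets by 0.39 and -0.097, of which the second did not pass (edgeR adjusted p 0.0646), though it did with the replicate block added (edgeR adjusted p 0.00087). Atp6v1f, a subunit of the central rotor, stood at 62.7 CPM ± 0.77, 125 ± 6.08 and 83.5 ± 2.44 (SD, n = 3), with changes of 0.99 and -0.58, or 0.36 and -0.11 with the offsets. For Atp6v1e1, of the peripheral stalk, the same changes were 0.63 and -0.34, for the rotor subunit Atp6v1d 0.58 and -0.30, for Atp6v1h, which joins V1 to V0, 0.46 and -0.33, and for the stalk subunit Atp6v1c1 0.58 and -0.09. With the offsets Atp6v1e1 did not pass in the first comparison and was called higher in the second (-0.054 and 0.18, edgeR adjusted p 0.218 and 7.16e-05). The second changes of Atp6v1d and Atp6v1c1 did not pass with the offsets (0.038 and 0.0090). Atp6v1a and Atp6v1b2, which form the ATP-splitting ring, had smaller values in the first comparison. They were at 0.08 and 0.03 in APP/PS1 versus WT, where only Atp6v1a passed with TMM (edgeR adjusted p 0.03), and both had negative values there on TPM (-0.30 and -0.36), with library totals (-0.055 and -0.11) and on FPKM (-0.052 and -0.10 with a pseudocount of 1). With the offsets both were called higher there, at 0.15 and 0.10 (edgeR adjusted p 4.55e-05 and 0.0071). In Cx43 cKO they rose by 0.17 and 0.25 over APP/PS1 (edgeR adjusted p 4.43e-05 and 8.55e-07) under every scaling. All 8 V1 genes were higher in Cx43 cKO than in WT with TMM, by 0.13 to 0.49, but only Atp6v1c1, Atp6v1f and Atp6v1g1 were called under every scaling. On TPM Atp6v1a (0.061), Atp6v1b2 (0.085), Atp6v1d (0.089), Atp6v1e1 (0.090) and Atp6v1h (-0.075) did not pass. Atp6v1d (0.18) and Atp6v1h (0.022) did not pass with library totals, nor on FPKM (0.18 and 0.013 with a pseudocount of 1). Atp6v1h also missed the threshold with the offsets (0.10, edgeR adjusted p 0.0608), but not with offsets and replicate block together (edgeR adjusted p 0.0215).

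Several V1 calls depended on a single library. Atp6v1a in APP/PS1 versus WT did not pass without APP/PS1 library 3 (0.057), WT library 2 (0.072) or WT library 3 (0.080). Atp6v1c1 in Cx43 cKO versus APP/PS1 did not pass without Cx43 cKO library 1 (-0.072) or 2 (-0.090), APP/PS1 library 1 (-0.088) or 3 (-0.054), or WT library 3 (-0.087). In the same comparison Atp6v1d did not pass without Cx43 cKO library 2 (-0.28). Against WT, Atp6v1d in Cx43 cKO did not pass without Cx43 cKO library 1 (0.24) or 2 (0.30) or WT library 2 (0.28), nor Atp6v1h without Cx43 cKO library 3 (0.085) or WT library 2 (0.13) or 3 (0.13).

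The 2 accessory proteins differed. Atp6ap2, also known as the prorenin receptor and needed for pump assembly, rose by 0.35 in APP/PS1 versus WT (edgeR adjusted p 3.83e-07; -0.043 on TPM) and fell by 0.29 in Cx43 cKO versus APP/PS1 (edgeR adjusted p 5.58e-06). Its Cx43 cKO level of 208 CPM ± 11.6 overlapped that of WT, 199.7 ± 7.42 (SD, n = 3), and the change of 0.06 did not pass (edgeR adjusted p 0.259), although it did without Cx43 cKO library 2 (0.10) and with the replicate block (0.059, edgeR adjusted p 0.0171; 0.064 and 0.011 with the offsets as well). On TPM it was instead called lower (-0.14, limma adjusted p 0.0303). Atp6ap1 changed by 0.09 and 0.10 (edgeR adjusted p 0.0164 and 0.0063). The first of these was -0.31 on TPM, -0.052 with library totals and -0.051 on FPKM, and did not pass without APP/PS1 library 3 (0.082), WT library 1 (0.075) or WT library 3 (0.067). The second was found with all scalings.

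Changes across all genes moved with gene length, and several V-ATPase genes are short. With genes put in 10 bins by length, the bin of shortest genes (median 884 nt), which holds Atp6v0b, Atp6v0c, Atp6v0e, Atp6v1e1, Atp6v1f and Atp6v1g1, gave medians of 0.62 on the log2 scale in APP/PS1 versus WT, -0.52 in Cx43 cKO versus APP/PS1 and 0.17 in Cx43 cKO versus WT. The bin of longest genes (median 7918.5 nt), with none of the 40, had -0.09, 0.02 and -0.06. Offsets that level length and GC content in each library gave 12 of the 16 V-ATPase genes higher in APP/PS1 versus WT, as many as without them, but the genes differed. Atp6v0a1 and Atp6v1b2 passed as higher with the offsets only, Atp6v0b and Atp6v1e1 no longer passed, and Atp6v0c and Atp6v0d1, which had not passed with TMM, were called lower. In Cx43 cKO versus APP/PS1 the offsets changed the balance, from 3 higher and 10 lower to 7 higher and 5 lower. Of all genes, the offsets called 25.6% higher and 27.5% lower in the first of these comparisons and 26.7% and 25.2% in the second. The median of the 16 went from 0.48 to 0.20 in APP/PS1 versus WT, from -0.26 to 0.02 in Cx43 cKO versus APP/PS1, and from 0.29 to 0.22 in Cx43 cKO versus WT. In the last comparison 15 rose without offsets and 12 with them, where 26.3% of all genes were called higher and 21.7% lower with the offsets. The V-ATPase genes that fell in Cx43 cKO versus APP/PS1 with every scaling were Atp6v0d2, Atp6v0e, Atp6v1f and Atp6v1h. Of these, Atp6v0d2, at 2498 nt, lies in a bin where the median of all genes was -0.087 in APP/PS1 versus WT and 0.036 in Cx43 cKO versus APP/PS1.

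**Figure D2:**
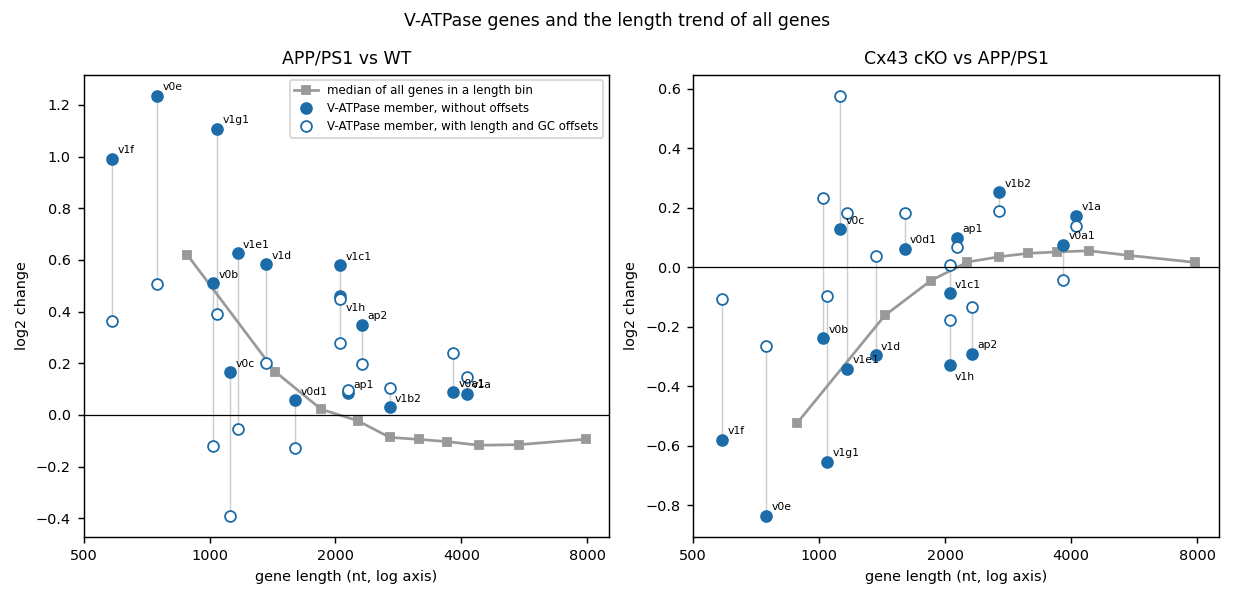
Log2 change (y axis) against gene length in nt (x axis, log scale) for the V-ATPase genes other than Atp6v0d2, in APP/PS1 versus WT (left) and Cx43 cKO versus APP/PS1 (right); filled points are without and open points with length and GC offsets, and grey squares are the medians of all genes in 10 length bins. Atp6v0e, Atp6v1f and Atp6v1g1 lie beyond the medians of the shortest bin, 0.62 and -0.52, and closer to 0 with the offsets.

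Per unit length, the V-ATPase subunits did not stand at equal levels. Atp6v0c, of which one pump holds many copies in its ring, was the highest, with 1005 TPM ± 68.8 for WT, 859.5 ± 57.2 for APP/PS1 and 1074 ± 60.8 for Cx43 cKO (SD, n = 3). In WT Atp6v0b followed, with 317 TPM ± 13.1, and it had 358 ± 18.0 and 340.2 ± 13.2 in the other groups (SD, n = 3). Atp6v1a and Atp6v1b2 stood at 92.9 TPM ± 1.70 and 108 ± 3.95 in WT (SD, n = 3). In WT Atp6v0d2 had 1.05 TPM ± 0.064 and was the lowest of all 40 genes. It reached 11.2 TPM ± 0.512 with APP/PS1 and 5.67 ± 0.588 with Cx43 cKO (SD, n = 3), below the next subunit, Atp6v1h, at 61.1 ± 0.808 and 55.1 ± 3.20. The WT order from Atp6v1a to Atp6v0a1 to Atp6v1b2 (92.9, 98.9 and 108 TPM, SDs of 1.70, 6.25 and 3.95) begins with neighbours that differ by less than the SD of Atp6v0a1, while the gap from Atp6v0a1 to Atp6v1b2 is larger than either SD.

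**Figure D3:**
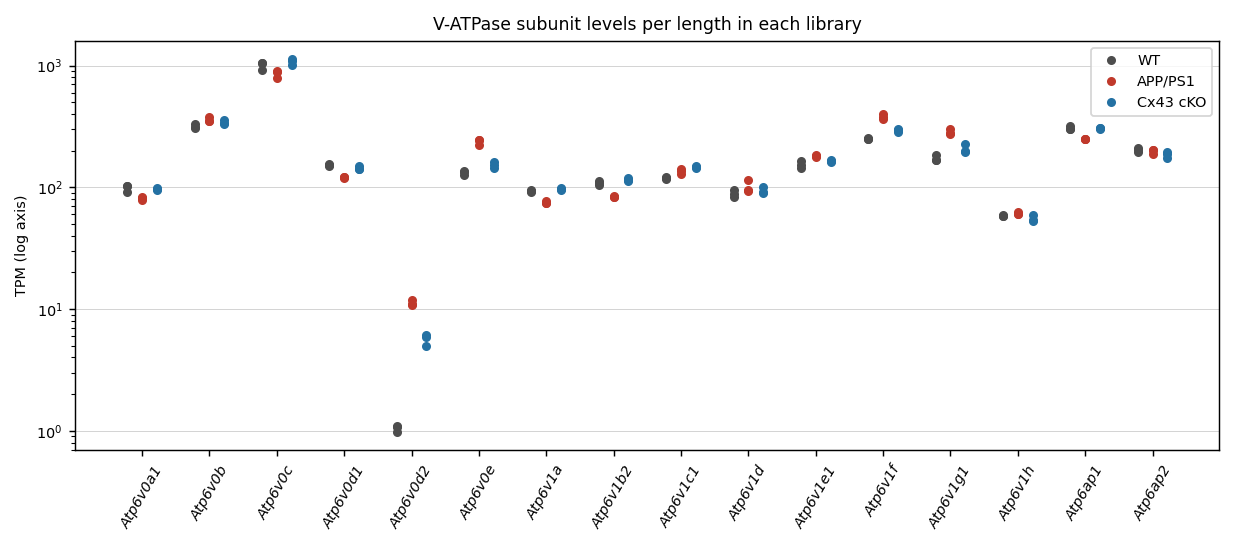
TPM (y axis, log scale) of each V-ATPase gene in each library, coloured by group. Atp6v0d2 is the one gene near 1 TPM in WT and 11.2 TPM in APP/PS1, with Cx43 cKO at 5.67 TPM between them, while the other 15 genes lie between 53.0 and 1123 TPM in every library.

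The glycosidases, which take sugars off glycolipids and glycoproteins, mostly rose: 6 of 7 were higher in APP/PS1 versus WT (26.9% of all genes) and 7 of 7 in Cx43 cKO versus WT (24.7% of all genes), with medians of 0.71 and 0.89. Hexa (chr9:59539540-59565109), one subunit of the β-hexosaminidase that degrades GM2 ganglioside, stood at 414, 425 and 438 CPM for WT, 878, 912 and 918 CPM for APP/PS1, and 949.7, 971 and 973 CPM for Cx43 cKO. Both disease-model groups lay above WT without overlap, and Cx43 cKO lay just above APP/PS1. The log2 changes were 1.08 for APP/PS1 and 1.18 for Cx43 cKO versus WT (SE 0.03 each, edgeR adjusted p 1.55e-21 and 3.76e-22), and 0.10 between them (SE 0.03, edgeR adjusted p 0.00506). Gusb (β-glucuronidase), Glb1 (β-galactosidase) and Naglu, which acts on heparan sulphate, rose by 1.01, 0.75 and 0.71 in APP/PS1 and by 0.93, 1.08 and 0.89 in Cx43 cKO versus WT. These 4 genes kept their calls against WT under every scaling. Glb1 and Naglu were also higher in Cx43 cKO relative to APP/PS1, by 0.33 and 0.18 (edgeR adjusted p 1.27e-07 and 0.000217), while Gusb was lower by -0.08 (edgeR adjusted p 0.0196; 0.12 on TPM). That call of Gusb was lost without Cx43 cKO library 1 (-0.071) or APP/PS1 library 3 (-0.075).

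Gla and Man2b1 showed another pattern. Gla (chrX:134588169-134601005), the α-galactosidase that removes the end sugar of globotriaosylceramide, stood at 73.1, 72.4 and 70.1 CPM for WT, 59.3, 57.0 and 60.1 CPM for APP/PS1, and 78.1, 76.5 and 76.5 CPM for Cx43 cKO. APP/PS1 was the low group, without overlap. Gla was lower by -0.29 in APP/PS1 than in WT (SE 0.04, edgeR adjusted p 7.69e-07) and 0.39 higher in Cx43 cKO relative to APP/PS1 (SE 0.04, edgeR adjusted p 5.58e-09). Both calls were found under every scaling. Against WT it was 0.10 higher in Cx43 cKO (edgeR adjusted p 0.0371), but this was negative with library totals (-0.0079), on FPKM (-0.0075 and -0.0078) and on TPM, where it was called lower (-0.096). It did not pass without any single Cx43 cKO library (0.091, 0.11 and 0.10 without 1, 2 and 3), APP/PS1 library 3 (0.097), or WT library 2 (0.10) or 3 (0.082).

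Man2b1 (chr8:85082730-85098739), the acid α-mannosidase, stood at 994, 1035 and 1049 CPM for WT, 1057, 1119 and 1116 CPM for APP/PS1, and 1458, 1519 and 1510.1 CPM for Cx43 cKO. The Cx43 cKO libraries were well above the other 6, and those of WT and APP/PS1 lay next to each other. It was 0.45 higher in Cx43 cKO relative to APP/PS1 (SE 0.03, edgeR adjusted p 5.33e-13) and 0.54 higher than in WT (SE 0.03, edgeR adjusted p 1.22e-14). Its change of 0.10 in APP/PS1 versus WT (edgeR adjusted p 0.00557) was negative with library totals (-0.040), on FPKM (-0.033 with each pseudocount) and on TPM (-0.29). Gaa, which degrades glycogen, had 0.14 against WT in both groups with TMM (edgeR adjusted p 0.00222 and 0.00303) and 0.00 between them. On TPM these were -0.26, -0.066 and 0.19, and on FPKM the first was -0.0033. With the offsets they were 0.38, 0.23 and -0.14, and the last was called lower (edgeR adjusted p 0.000255).

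Among the 5 sphingolipid genes, Gm2a had the largest increase and Asah1 and Galc differed most between Cx43 cKO and APP/PS1. Gm2a (chr11:55097985-55113029), the activator that presents GM2 ganglioside to β-hexosaminidase, stood at 108, 109 and 111 CPM for WT, 305, 304 and 302 CPM for APP/PS1, and 327, 325 and 334 CPM for Cx43 cKO. The groups did not overlap, and the libraries within each were close. It was 2.77-fold higher in APP/PS1 than in WT (log2 change 1.47, SE 0.03, edgeR adjusted p 6.71e-24) and 3.00-fold higher in Cx43 cKO (1.59, SE 0.03, edgeR adjusted p 1.78e-24). Its 0.11 between Cx43 cKO and APP/PS1 passed with TMM (edgeR adjusted p 0.00136) but was 0.030 with the offsets and did not pass (edgeR adjusted p 0.305). Per length, Gm2a transcripts amounted to 11.8% ± 0.20 of those of Hexa, its partner, for WT, 15.5% ± 0.46 for APP/PS1 and 15.7% ± 0.25 for Cx43 cKO (SD, n = 3).

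Asah1 (chr8:41340646-41397644), the acid ceramidase, stood at 407, 383 and 401 CPM for WT, 603, 586 and 603 CPM for APP/PS1, and 391.9, 369.5 and 375 CPM for Cx43 cKO. APP/PS1 was the high group, and Cx43 cKO overlapped WT. It rose by 0.59 in APP/PS1 (SE 0.03, edgeR adjusted p 3.03e-15) and was -0.66 in Cx43 cKO versus APP/PS1 (SE 0.03, edgeR adjusted p 3.81e-16), under every scaling. Its -0.07 in Cx43 cKO versus WT did not pass (edgeR adjusted p 0.0702), but it did without Cx43 cKO library 1 (-0.093) or WT library 2 (-0.093), with the offsets (-0.063, edgeR adjusted p 0.0252) and with the replicate block (-0.068, edgeR adjusted p 0.00157). It was called lower with larger values with library totals (-0.18, edgeR adjusted p 3.1e-05), on FPKM (-0.18 with each pseudocount) and on TPM (-0.27). Galc (chr12:98202287-98259459), which degrades the myelin lipid galactosylceramide, stood at 49.98, 51.8 and 52.8 CPM for WT, 64.0, 59.5 and 58.8 CPM for APP/PS1, and 96.6, 99.1 and 98.1 CPM for Cx43 cKO. It was the largest increase of the 40 genes in Cx43 cKO versus APP/PS1 (0.69, SE 0.04, edgeR adjusted p 9.24e-14) and stood 0.93 above WT (SE 0.04, edgeR adjusted p 2.76e-16). Its smaller rise of 0.24 in APP/PS1 (SE 0.04, edgeR adjusted p 4.29e-05) was -0.20 on TPM.

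Psap (chr10:60277628-60302600), the precursor of the saposins that help glucosylceramide and related lipids to be degraded, was the gene with the highest level per length among the 40, at 3722 TPM ± 47.1 for WT, 2307 ± 54.2 for APP/PS1 and 3190 ± 60.6 for Cx43 cKO (SD, n = 3). In CPM its libraries stood at 4039, 4157 and 4099 for WT, 3249, 3411 and 3356 for APP/PS1, and 3936, 4081 and 4080.3 for Cx43 cKO. The APP/PS1 libraries were lowest, and Cx43 cKO overlapped WT. Psap was lower by -0.30 in APP/PS1 than in WT (SE 0.03, edgeR adjusted p 1.66e-10), and 0.27 higher in Cx43 cKO relative to APP/PS1 (SE 0.03, edgeR adjusted p 1e-09), under every scaling. Its -0.02 in Cx43 cKO versus WT did not pass with TMM (edgeR adjusted p 0.482), but Psap was called lower there with library totals (-0.13, edgeR adjusted p 8.7e-05), on FPKM (-0.13 with each pseudocount) and on TPM (-0.22). Smpd1, the acid sphingomyelinase, did not pass in any comparison with TMM (0.06, -0.06 and 0.01), whereas on TPM it was called at -0.32, 0.13 and -0.19. With the offsets its first 2 changes were called with the opposite signs to TPM, at 0.10 and -0.12 (edgeR adjusted p 0.045 and 0.0241).

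Of the other 4 hydrolases, Ppt1, a thioesterase that takes fatty acids off proteins, rose by 0.61 in APP/PS1 and 0.54 in Cx43 cKO versus WT (edgeR adjusted p 2.88e-15 and 9.04e-14) under every scaling. Plbd2, named for its likeness to phospholipase B, rose by 0.33 and 0.43, with -0.058 for the first on TPM. The protease Tpp1 rose by 0.13 and 0.28, with the first at -0.21 on TPM and -0.0079 with library totals. Lgmn, the asparagine-specific protease legumain, fell in APP/PS1 (-0.11, edgeR adjusted p 0.00243) and was 0.16 higher in Cx43 cKO relative to APP/PS1 (edgeR adjusted p 2.07e-05), again under every scaling. Against WT it was at 0.06 in Cx43 cKO (edgeR adjusted p 0.0902) and called lower on TPM (-0.14), but higher with DESeq2 size factors (0.084, edgeR adjusted p 0.0159) and with the DESeq2 Wald test (0.085), and it passed with TMM without Cx43 cKO library 1 (0.083) and with the replicate block (0.059, edgeR adjusted p 0.016). In Cx43 cKO versus APP/PS1, Tpp1 was at 0.15 (edgeR adjusted p 0.000515) under every scaling, Plbd2 at 0.10 (edgeR adjusted p 0.0412; -0.050 with the offsets) and Ppt1 at -0.08 (edgeR adjusted p 0.0426; 0.12 on TPM and -0.041 with the offsets). With the offsets neither Plbd2 nor Ppt1 passed. The call of Plbd2 was lost without Cx43 cKO library 2 (0.059) or 3 (0.11), APP/PS1 library 1 (0.060) or WT library 3 (0.099). That of Ppt1 was lost without Cx43 cKO library 2 (-0.078) or 3 (-0.065), APP/PS1 library 1 (-0.053) or 3 (-0.071), or WT library 3 (-0.075).

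All 16 hydrolases and activators together had medians of 0.29, 0.13 and 0.49 in APP/PS1 versus WT, Cx43 cKO versus APP/PS1 and Cx43 cKO versus WT, where all genes had -0.036, -0.011 and -0.0086. They counted 12 higher and 3 lower in the first, 11 and 3 in the second, and 12 and 0 in the third, beside 26.9% and 32%, 27.3% and 27.7%, and 24.7% and 23% of all genes. Length and GC offsets gave 13 and 3, 9 and 4, and 12 and 1, with medians of 0.41, 0.10 and 0.51, beside 25.6% and 27.5%, 26.7% and 25.2%, and 26.3% and 21.7% of all genes.

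Among the 5 membrane proteins, 4 rose in APP/PS1 versus WT with TMM (26.9% of all genes), led by Cd68 and Lamp2, and Mcoln1 did not pass. Cd68 (chr11:69664213-69666170), a glycoprotein of macrophage lysosomes and a common histological marker of phagocytic microglia, stood at 389, 427 and 419.5 CPM for WT, 785, 842 and 829.6 CPM for APP/PS1, and 807, 875 and 882 CPM for Cx43 cKO. Both disease-model groups lay above WT and overlapped each other. The log2 changes against WT were 0.99 and 1.05 (SE 0.04 each, edgeR adjusted p 3.98e-13 and 3.11e-13) under every scaling. Between Cx43 cKO and APP/PS1 the change was 0.06 (SE 0.04, edgeR adjusted p 0.201), which passed without Cx43 cKO library 1 (0.10) and as higher with the offsets (0.18), on TPM (0.26) and with library totals (0.091). Lamp2 (chrX:38399647-38456460), needed for fusion of lysosomes with autophagosomes, stood at 511, 483 and 493 CPM for WT, 785, 759 and 790.4 CPM for APP/PS1, and 718, 677 and 710.4 CPM for Cx43 cKO. The groups did not overlap, with Cx43 cKO between the others. Its changes were 0.65 and 0.50 against WT (SE 0.03 each, edgeR adjusted p 2.86e-16 and 1.47e-13) under every scaling, and -0.15 in Cx43 cKO versus APP/PS1 (SE 0.03, edgeR adjusted p 0.00012), which was 0.037 on TPM and, with the offsets, -0.028 and not past the threshold (edgeR adjusted p 0.299), unless the replicate block was added (edgeR adjusted p 0.0452).

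Lamp1 (chr8:13159161-13175338) stood at 953, 921 and 956 CPM for WT, 1143, 1125 and 1172 CPM for APP/PS1, and 1231, 1179.9 and 1243 CPM for Cx43 cKO. The groups did not overlap, though the lowest Cx43 cKO library lay close to the highest of APP/PS1. Lamp1 rose by 0.28 in APP/PS1 (SE 0.03, edgeR adjusted p 1.94e-09; -0.11 on TPM) and by 0.37 in Cx43 cKO versus WT (SE 0.03, edgeR adjusted p 1.75e-11). The difference of 0.09 between Cx43 cKO and APP/PS1 (SE 0.03, edgeR adjusted p 0.00996) did not pass without Cx43 cKO library 3 (0.072) or APP/PS1 library 2 (0.070). Per length, Lamp2 amounted to 38.8% ± 0.909 of Lamp1 for WT, 53.5% ± 0.746 for APP/PS1 and 45.2% ± 0.557 for Cx43 cKO (SD, n = 3). Laptm5, a lysosomal membrane protein of blood-lineage cells, rose by 0.34 in Cx43 cKO versus WT and by 0.24 against APP/PS1 (edgeR adjusted p 5.04e-09 and 9.45e-07) under every scaling. Its 0.10 in APP/PS1 versus WT (edgeR adjusted p 0.0107) was -0.30 on TPM, -0.039 with library totals and -0.040 on FPKM. It did not pass without APP/PS1 library 2 (0.081) or 3 (0.088) or WT library 1 (0.072). Mcoln1, the lysosomal calcium channel TRPML1, was at -0.10 in APP/PS1 versus WT and 0.03 in Cx43 cKO versus WT and passed in neither (edgeR adjusted p 0.097 and 0.701), the second being called at -0.17 on TPM. The first was called lower on TPM (-0.48), with the offsets (-0.13, edgeR adjusted p 0.0206), with library totals (-0.24), on FPKM (-0.23 and -0.24) and with the replicate block (-0.10, edgeR adjusted p 0.0381). It was 0.13 higher in Cx43 cKO relative to APP/PS1 (edgeR adjusted p 0.0408), a call lost without Cx43 cKO library 2 (0.11) or 3 (0.10) or APP/PS1 library 1 (0.10) or 3 (0.13).

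Of the 3 transcription factors, Tfeb and Tfe3 fell in APP/PS1 versus WT and Mitf rose with TMM (32% and 26.9% of all genes fell and rose). Tfeb (chr17:47737037-47792416) stood at 34.1, 35.5 and 34.8 CPM for WT, 24.6, 27.7 and 24.3 CPM for APP/PS1, and 29.3, 28.3 and 26.8 CPM for Cx43 cKO. WT was the high group without overlap, and the other groups overlapped each other. Tfeb was lower by -0.45 in APP/PS1 (SE 0.06, edgeR adjusted p 1.85e-07) and by -0.31 in Cx43 cKO versus WT (SE 0.06, edgeR adjusted p 5.33e-05), both under every scaling. Its 0.14 between Cx43 cKO and APP/PS1 (edgeR adjusted p 0.0479) did not pass without Cx43 cKO library 1 (0.11) or 2 (0.13), APP/PS1 library 1 (0.12) or 3 (0.10), or WT library 2 (0.14) or 3 (0.14), or with the offsets (0.062). Tfe3 (chrX:7762530-7775202) stood at 185, 197 and 198 CPM for WT, 146, 158 and 156 CPM for APP/PS1, and 163, 187 and 170.2 CPM for Cx43 cKO. It fell by 0.34 in APP/PS1 (SE 0.05, edgeR adjusted p 5.14e-06) and by 0.16 in Cx43 cKO versus WT (SE 0.05, edgeR adjusted p 0.00909), where the libraries overlapped. Both of these were found under every scaling. Tfe3 was 0.18 higher in Cx43 cKO relative to APP/PS1 (SE 0.05, edgeR adjusted p 0.00297), but with the offsets this was 0.070 and did not pass (edgeR adjusted p 0.078), though it did with the replicate block added (edgeR adjusted p 0.0158). Mitf (chr6:97807002-98021360) stood at 44.9, 46.1 and 43.8 CPM for WT, 54.5, 49.7 and 51.2 CPM for APP/PS1, and 50.2, 48.3 and 47.2 CPM for Cx43 cKO. It rose by 0.21 in APP/PS1 with TMM (SE 0.05, edgeR adjusted p 0.000547), was at -0.18 on TPM, and did not pass in the other comparisons (-0.09 and 0.11, edgeR adjusted p 0.0985 and 0.0539). It did pass without APP/PS1 library 2 in the first of them (-0.13) and without APP/PS1 library 1 in the other (0.11). Mitf in Cx43 cKO versus WT also passed with the offsets (0.14, edgeR adjusted p 0.00652) and the replicate block (0.11, edgeR adjusted p 0.0137), with DESeq2 size factors (0.14, edgeR adjusted p 0.02) and with only the 2 groups compared (0.11, edgeR adjusted p 0.0495).

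**Figure D4:**
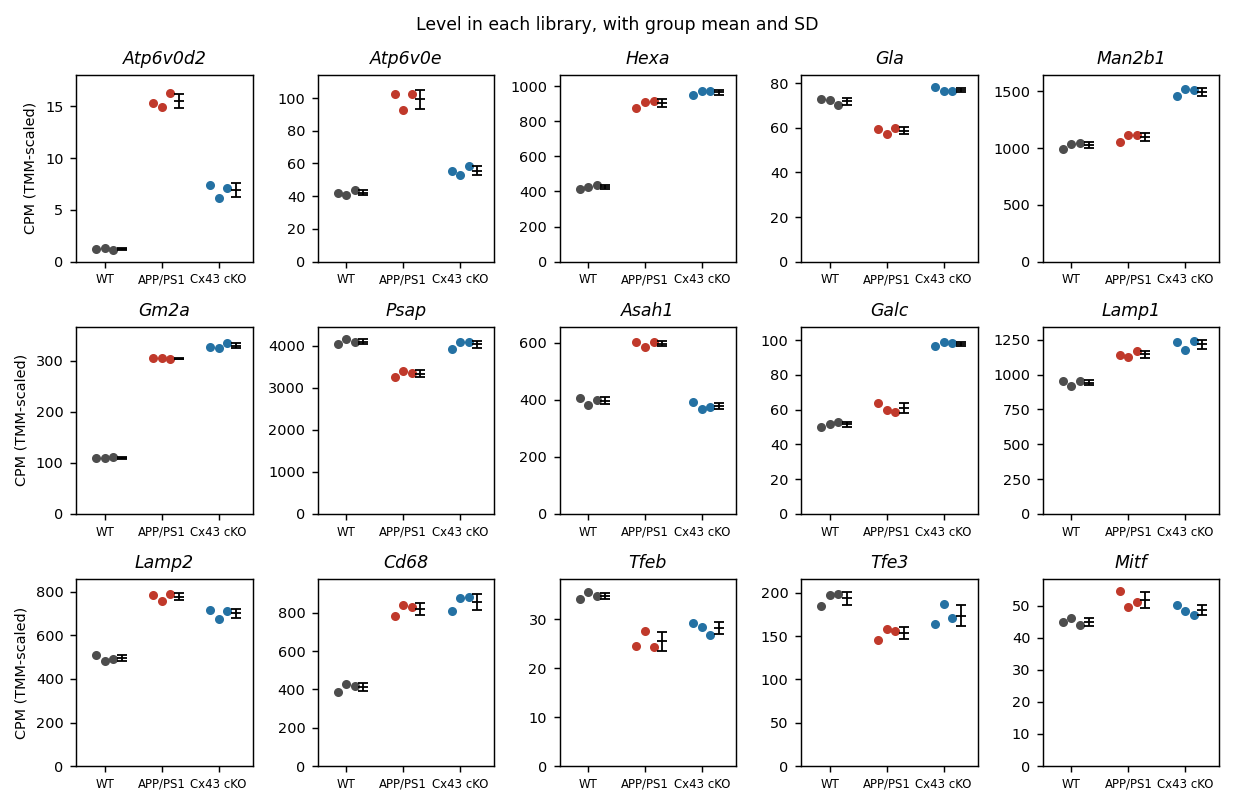
CPM with TMM scaling (y axes start at 0 and differ between panels) of 15 genes in each library of WT, APP/PS1 and Cx43 cKO; points are libraries, and bars give the group mean ± SD (n = 3). Hexa, Gm2a and Cd68 are high in both disease-model groups, Atp6v0d2, Atp6v0e and Asah1 are highest in APP/PS1, Gla and Psap are lowest there, Galc and Man2b1 are highest in Cx43 cKO, and Tfeb is highest in WT.

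Genes with the CLEAR core in the promoter window were set beside the others as a description, where 26.9% and 32%, 27.3% and 27.7%, and 24.7% and 23% of all genes were called higher and lower in the 3 comparisons. Of the 11 with a match, 7 rose and 2 fell in APP/PS1 versus WT, with a median of 0.14 (log2), and of the 22 without a match 16 rose and 3 fell, with a median of 0.22. In Cx43 cKO versus APP/PS1 the counts were 7 higher and 2 lower (median 0.13) with a match and 10 higher and 7 lower (median 0.086) without. In Cx43 cKO versus WT they were 9 higher and 0 lower (0.26) with a match and 16 higher and 2 lower (0.29) without. Among the genes with the most sites, Lamp1 rose with TMM and Gla fell in APP/PS1, so both directions occurred in promoters printed above.

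Other lysosomal genes were counted from separate lists, and each change given for one of them below passed the edgeR test. Their counts stand beside the background of all genes, of which 26.9% were called higher and 32% lower in APP/PS1 versus WT, 27.3% and 27.7% in Cx43 cKO versus APP/PS1, and 24.7% and 23% in Cx43 cKO versus WT. Of 11 tested genes for other V-ATPase subunits and assembly factors, 4 rose and 4 fell in APP/PS1 versus WT (median -0.0023), 2 rose and 4 fell in Cx43 cKO versus APP/PS1, and 1 rose and 3 fell in Cx43 cKO versus WT. Those are 36.4% higher and 36.4% lower, 18.2% and 36.4%, and 9.09% and 27.3% of the 11 genes. The assembly factors Vma21 and Tmem199 were 0.43 and 0.35 above WT in APP/PS1, and Cx43 cKO versus APP/PS1 gave -0.36 and -0.24. Rogdi and Dmxl2, which belong to a complex that brings V1 and V0 together, were at -0.40 and -0.37 in APP/PS1 versus WT. Dmxl2 was 0.88 higher in Cx43 cKO relative to APP/PS1 (61.8 CPM ± 0.57 against 33.5 ± 1.02, SD, n = 3) and 0.51 higher than in WT. Tcirg1, an a subunit prominent in osteoclasts and immune cells, was 0.23 higher in Cx43 cKO relative to APP/PS1, and Rogdi and Atp6v0a2 were at -0.32 and -0.30 in Cx43 cKO versus WT.

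Of 31 other hydrolases and activators, 14 rose and 13 fell in APP/PS1 versus WT, 11 and 11 in Cx43 cKO versus APP/PS1, and 15 and 10 in Cx43 cKO versus WT. As shares of the 31 these are 45.2% higher and 41.9% lower, 35.5% and 35.5%, and 48.4% and 32.3%. Ggh, which trims folates, and Aga, which degrades glycoproteins, had the largest increases in APP/PS1 (1.62 and 1.03) and were lower in Cx43 cKO relative to APP/PS1 (-0.85 and -0.54). Plbd1, a relative of Plbd2, and the acid phosphatase Acp5 had the largest decreases in APP/PS1 (-1.43 and -1.34). Plbd1 stood at 34.6 CPM ± 3.51 for WT, 12.8 ± 0.685 for APP/PS1 and 77.9 ± 2.21 for Cx43 cKO (SD, n = 3). It was 2.603 higher in Cx43 cKO relative to APP/PS1 and 1.17 higher than in WT (edgeR adjusted p 6.95e-22 and 6.35e-16). All 11 markers of monocytes and neutrophils fell in APP/PS1 and rose in Cx43 cKO against both other groups, the order that Plbd1 shows, and their part in it was not tested. Galns, a sulphatase, was 0.66 above APP/PS1 and 1.10 above WT in Cx43 cKO, and Sgsh and Acp5 were at -1.03 and -0.85 in Cx43 cKO versus WT.

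Of 32 other membrane proteins tested, 16 rose and 6 fell in APP/PS1 versus WT, 10 and 12 in Cx43 cKO versus APP/PS1, and 13 and 5 in Cx43 cKO versus WT. As shares of the 32 these are 50% and 18.8%, 31.2% and 37.5%, and 40.6% and 15.6%. Gpnmb, a glycoprotein of lipid-laden macrophages, stood at 8.40 CPM ± 1.22 for WT, 294 ± 15.9 for APP/PS1 and 112 ± 6.97 for Cx43 cKO (SD, n = 3), with log2 changes of 5.13, -1.40 and 3.73 (edgeR adjusted p 1.33e-16, 1.35e-11 and 2.7e-14). The tetraspanin Cd63 stood at 218 CPM ± 7.26, 758 ± 30.6 and 417 ± 16.8 (SD, n = 3), with changes of 1.80, -0.86 and 0.93. The same order, high in APP/PS1 and lower but above WT in Cx43 cKO, was that of Atp6v0d2. Sidt2 and Slc15a4 were at -0.38 and -0.26 in APP/PS1 versus WT. Mcoln2, a channel related to Mcoln1, and Sidt2 were 0.52 and 0.44 higher in Cx43 cKO relative to APP/PS1. Against WT, Mcoln2 was 1.91 higher in Cx43 cKO, at 2.43 CPM ± 0.284 against 0.641 ± 0.209 (SD, n = 3), and Abcb9 and Slc15a4 were at -0.50 and -0.45.

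Of 20 genes of the lysosomal signalling that controls TFEB and the growth kinase mTORC1, 11 rose and 7 fell in APP/PS1 versus WT, 8 and 7 in Cx43 cKO versus APP/PS1, and 9 and 5 in Cx43 cKO versus WT. As shares of the 20 these are 55% and 35%, 40% and 35%, and 45% and 25%. Lamtor4 and Lamtor2, parts of the scaffold that holds mTORC1 at the lysosome, were 1.504 and 1.18 above WT in APP/PS1 and at -0.97 and -0.92 in Cx43 cKO versus APP/PS1. Tfec, a relative of Tfeb, was at -1.32 in APP/PS1 versus WT and 1.08 in Cx43 cKO versus APP/PS1, with 3.56 CPM ± 0.462 for WT, 1.42 ± 0.102 for APP/PS1 and 3.02 ± 0.235 for Cx43 cKO (SD, n = 3). Mlst8, an mTOR partner, was at -0.94, 0.48 and -0.47 in the 3 comparisons. Rragd and Fnip2, which belong to the branch that controls TFEB, were 0.91 and 0.63 above WT in Cx43 cKO, and Rragb was at -0.50. For these other lists only values without the length and GC offsets are given, so how far their changes follow gene length was not examined.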

How the data were processed

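Poly-A RNA of microglia from 9 samples was sequenced as single-end 50-base reads on DNBSEQ, per the labels' protocols. The authors deposited 1 table with estimated counts, FPKM and TPM for each library, and normalised counts as a signal per library, which were not used here. The submitters' processing notes name HISAT, Bowtie2, DESeq2 and the build GRCm38.p6, with no role given. How reads shared by near-identical genes were handled is not given in the sources used here. The 40 genes and all lists were chosen with earlier results of these data known.

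Deposited estimated counts hold decimals, so they were rounded to whole numbers. Genes were filtered with filterByExpr by group and tested with edgeR 4.0.16 in R 4.3.3 (TMM, robust quasi-likelihood fit, all 9 libraries, 1 mean per group), with Benjamini-Hochberg adjustment over 14696 genes and a threshold of 0.05. CPM use TMM-scaled library sizes. Gene length was taken from the ratio of deposited counts to deposited FPKM, and GC content from GENCODE mouse release 21. Values in every library are given for the 3 largest called increases and decreases among the 40 in each comparison and for Atp6v0d2, Lamp1, Lamp2, Cd68, Tfeb, Tfe3 and Mitf. From each other list and comparison, up to 2 genes called higher and 2 called lower with the largest changes and a mean of at least 1 CPM were named, and Gja1, Cx3cr1 and Ddx3y checked the labels. Alternatives were DESeq2 1.42.0, limma 3.58.1 (voom, and log2 of FPKM or TPM plus a pseudocount), other scalings, filters, thresholds and offsets, a replicate block, and leaving out each library. Replicate numbers in the labels count as pairs in both comparisons with WT, where deviations from the group means of all 3 same-numbered pairs correlated above 0.1 (from 0.148 in APP/PS1 versus WT and from 0.111 in Cx43 cKO versus WT). By the cut-off of 0.1 they do not in Cx43 cKO versus APP/PS1, where the 3 pairs ran from 0.064 to 0.245. Each library correlated best with its own number there as well, so the cut-off does not show that this comparison is unpaired. The main test has no term for pairs in any comparison. Only the edgeR fit was tried on simulated counts, as a check of the code, and no result here rests on it.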

Additional observations from a re-analysis of the deposited data

How the results depend on the processing

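Among the 40 genes, TMM gave 29 higher and 5 lower calls in APP/PS1 against WT, 19 and 14 in Cx43 cKO against APP/PS1, and 31 and 2 in Cx43 cKO against WT. Counts stayed within 1.5 times of these with DESeq2 size factors, the DESeq2 Wald test, limma-voom, no filter, a minimum of 10 counts, only the 2 groups compared and a threshold of 0.01. Calls of at least 1.5-fold numbered 14 higher and 0 lower, 1 and 4, and 8 and 0, and those of at least 2-fold 6 and 0, 0 and 1, and 5 and 0. In APP/PS1 against WT, the lower calls numbered 8 with library totals, 8 on FPKM with either pseudocount, 8 with length and GC offsets, 9 with offsets and replicate block, and 20 on TPM, where 17 were higher. Of all genes, 46.9%, 45.4% and 45% (by pseudocount), 27.5%, 29.3% and 65.9% were called lower in the same order, and 11.4% higher on TPM. In Cx43 cKO against APP/PS1 the lower calls numbered 9 with the offsets and 7 on TPM, beside 25.2% and 15.3% of all genes. In Cx43 cKO against WT they numbered 4 with library totals, 4 on FPKM with either pseudocount and 10 on TPM, where 19 were higher, beside 38.1%, 35.1% and 34.9% and 49.4% of all genes lower. Leaving out 1 library gave 26 to 31 higher and 5 to 5 lower, 16 to 19 and 11 to 15, and 28 to 32 and 2 to 3, with no sign reversed.

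Signs reversed in 74 cases of a gene, comparison and setting, of which 40 also passed the threshold. The cause was not tested, nor was the part of the shift in the median of all genes with the scaling. With library totals, APP/PS1 against WT gave -0.081 for Atp6v0d1, -0.055 for Atp6v1a, -0.11 for Atp6v1b2, -0.052 for Atp6ap1, -0.040 for Man2b1, -0.0079 for Tpp1 and -0.039 for Laptm5, and Cx43 cKO against WT gave -0.0079 for Gla. On FPKM with a pseudocount of 1 and 0.1, APP/PS1 against WT gave -0.080 and -0.081 for Atp6v0d1, -0.052 and -0.053 for Atp6v1a, -0.10 and -0.11 for Atp6v1b2, -0.051 and -0.051 for Atp6ap1, -0.0033 and -0.0033 for Gaa, -0.033 and -0.033 for Man2b1, and -0.040 and -0.040 for Laptm5, and Cx43 cKO against WT gave -0.0075 and -0.0078 for Gla. On TPM with a pseudocount of 1, APP/PS1 against WT gave -0.28 for Atp6v0a1, -0.23 for Atp6v0c, -0.33 for Atp6v0d1, -0.30 for Atp6v1a, -0.36 for Atp6v1b2, -0.31 for Atp6ap1, -0.043 for Atp6ap2, -0.26 for Gaa, -0.29 for Man2b1, -0.32 for Smpd1, -0.20 for Galc, -0.21 for Tpp1, -0.058 for Plbd2, -0.11 for Lamp1, -0.30 for Laptm5 and -0.18 for Mitf. On TPM, Cx43 cKO against APP/PS1 gave 0.11 for Atp6v1c1, 0.12 for Gusb, 0.19 for Gaa, 0.13 for Smpd1, 0.12 for Ppt1 and 0.037 for Lamp2. On TPM, Cx43 cKO against WT gave -0.030 for Atp6v0a1, -0.079 for Atp6v0d1, -0.075 for Atp6v1h, -0.013 for Atp6ap1, -0.14 for Atp6ap2, -0.096 for Gla, -0.066 for Gaa, -0.19 for Smpd1, -0.14 for Lgmn and -0.17 for Mcoln1. With length and GC offsets, APP/PS1 against WT gave -0.12 for Atp6v0b, -0.39 for Atp6v0c, -0.13 for Atp6v0d1 and -0.054 for Atp6v1e1, and Cx43 cKO against APP/PS1 gave 0.23 for Atp6v0b, 0.0090 for Atp6v1c1, 0.038 for Atp6v1d, 0.18 for Atp6v1e1 and -0.050 for Plbd2. Those that passed were Atp6v0d1 and Atp6v1b2 with library totals and on FPKM, and on TPM each of those listed except Atp6ap2 and Plbd2 in the first comparison, Lamp2 in the second, and Atp6v0a1, Atp6v1h, Atp6ap1 and Gaa in the third. With the offsets they were Atp6v0c and Atp6v0d1 in the first comparison and Atp6v0b and Atp6v1e1 in the second.

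Some calls were lost with no change of sign. With library totals and on FPKM these included Mitf in APP/PS1 against WT, Atp6v1c1, Gusb and Ppt1 in Cx43 cKO against APP/PS1, and Gaa in Cx43 cKO against WT, besides Gaa with library totals and Galc and Tpp1 on FPKM in APP/PS1 against WT. On TPM they included Atp6v1h in APP/PS1 against WT and Atp6v0b, Atp6v1d and Atp6ap2 in Cx43 cKO against APP/PS1. The DESeq2 Wald test lost Atp6v1c1, Ppt1, Plbd2, Mcoln1 and Tfeb in Cx43 cKO against APP/PS1 and Gla in Cx43 cKO against WT.

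Each library correlated best with the library of its own number in each other group, a hint from the data and not from the design. Under the replicate block the calls were 31 higher and 6 lower, 23 and 15, and 34 and 3, beside 28.6% and 34.8%, 30.3% and 29.9%, and 27.9% and 26.1% of all genes. Without offsets the block added calls among the 40 genes and removed none. Added in Cx43 cKO versus APP/PS1 were Atp6v0a1 (0.076), Atp6v0c (0.13), Atp6v0d1 (0.062), Cd68 (0.061) and Mitf (-0.093), and those in the comparisons with WT stand beside the genes, so without offsets it changed no other call. Added to the offsets, the block added Atp6v0b in APP/PS1 against WT, Atp6v1g1, Lamp2 and Tfe3 in Cx43 cKO against APP/PS1, and Atp6v0b, Atp6v1h and Atp6ap2 in Cx43 cKO against WT. With the block and the offsets, the reversed values were -0.12 for Atp6v0b, -0.39 for Atp6v0c, -0.13 for Atp6v0d1 and -0.054 for Atp6v1e1 in APP/PS1 against WT, and 0.23 for Atp6v0b, 0.0089 for Atp6v1c1, 0.038 for Atp6v1d, 0.18 for Atp6v1e1 and -0.050 for Plbd2 in Cx43 cKO against APP/PS1. Offsets from the longest annotated transcript, an alternative chosen after seeing the data, gave 29 higher and 7 lower, 20 and 11, and 32 and 3. Of all genes they called 26.3% higher and 27.9% lower, 26.6% and 25.5%, and 26.9% and 21.6%. Counting error weighs most on Atp6v0d2 in WT, with 23 to 26 counts per library.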
